A study of Mus musculus with 16 samples.

Results

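Replication-dependent histone genes supply the bulk of the histone proteins that package newly copied DNA. They were taken as every identifier whose mouse symbol starts with Hist1h, Hist2h, Hist3h or Hist4h, or carries the newer name of the same gene, with pseudogenes left out. Of 55414 Ensembl gene identifiers in the table, 70 matched, 3 were pseudogenes, and 67 remained as members. These were 6 linker histone H1 genes, 18 H2A, 18 H2B, 12 H3 and 13 H4 genes. By cluster, 54 lay in Hist1, 10 in Hist2, 2 in Hist3 and 1 in Hist4.

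Transcripts were counted in 16 bulk libraries of leukaemia cells of mice that model pro-B acute lymphoblastic leukaemia of infants, and all 16 shared 1 genotype, miR-128a overexpressing Kmt2a-AFF1+, so no library lacks the microRNA or the fusion. Leukaemia-propagating cells (LPC) were sorted from 2 niches, the marrow (BM) and the central nervous system (CNS). LSK cells were Lin- Sca1+ cKit+ IL7R+, and LK cells (LK/CLP in the labels) were Lin- cKit+ and lacked Sca1. BM LSK, BM LK, CNS LSK and CNS LK had 4 libraries each, so LPC types and niches could be compared. The labels give no age, no promoter for the transgenes and no statement that replicates were separate animals, so p-values measure only the spread between these libraries.

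A canonical nucleosome holds H2A, H2B, H3 and H4 in equal numbers, and H1 binds the linker DNA between nucleosomes. Their mRNAs are made mainly in S phase, when NPAT drives their transcription in histone locus bodies. Most end in a conserved stem-loop instead of a poly(A) tail, which SLBP binds and which governs processing, translation and rapid decay when DNA synthesis stops. A total RNA kit, as used here, can capture such transcripts, which poly(A) selection largely misses.

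The stem-loop is printed because it is the feature that most members share and that the naming rule did not use. It was searched for after the stop codon of GENCODE M21 transcripts (GRCm38) as a 6-base complementary stem that starts with GG, with a 4-base loop that starts with TTT. It was found in 44 of 67 members, 22 to 59 bases after the stop codon (median 32). The loop is in capitals.
Stem-loop of 26 members (3 H1, 10 H2A, 8 H2B, 5 H3): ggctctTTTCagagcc
Stem-loop of 7 H4 members: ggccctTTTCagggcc
Stem-loop of 6 members (1 H1, 2 H2B, 3 H3): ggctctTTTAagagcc
Stem-loop of 2 H4 members: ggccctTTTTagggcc
Stem-loop of 2 other H4 members: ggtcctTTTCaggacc
Stem-loop of 1 H2A member: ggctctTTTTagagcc
The 11 H4 stem-loops found held stems that no other type had. Of the 23 members with no match, 16 had transcript models that ended under 40 bases after the stop codon.

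Promoters of 62 members were matched in a RefSeq table (GRCm38.p6). Stretches of 150 bases just upstream of the start are shown for 4 members on which the results turn: the H2B pair with the smallest p between LPC types, and the H2B and H4 genes with the highest levels. Capitals mark ATTTGCAT (the octamer bound by Oct1), CCAAT (bound by NF-Y), the TATA box letters TATAAA, and the letters GGTCCG (part of the H4 promoter element bound by HiNF-P) on either strand.
Hist1h2ba promoter, chr13:23934157-23934306, minus strand: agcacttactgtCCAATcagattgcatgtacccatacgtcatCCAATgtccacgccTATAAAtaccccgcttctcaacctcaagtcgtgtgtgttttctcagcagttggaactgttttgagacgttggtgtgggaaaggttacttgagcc
Hist1h2bj promoter, chr13:22043048-22043197, plus strand: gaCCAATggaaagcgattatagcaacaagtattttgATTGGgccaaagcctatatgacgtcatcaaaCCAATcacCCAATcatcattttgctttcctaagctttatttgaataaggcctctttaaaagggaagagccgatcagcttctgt
Hist1h2bk promoter, chr13:22035671-22035820, plus strand: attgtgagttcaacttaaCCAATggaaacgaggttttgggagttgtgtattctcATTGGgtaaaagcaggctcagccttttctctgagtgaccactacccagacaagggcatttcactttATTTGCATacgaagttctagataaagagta
Hist1h4d promoter, chr13:23581418-23581567, plus strand: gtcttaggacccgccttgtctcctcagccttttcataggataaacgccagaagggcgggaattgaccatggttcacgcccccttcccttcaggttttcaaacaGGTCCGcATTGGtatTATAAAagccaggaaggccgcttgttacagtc
Over the 250 bases before each start, both strands, ATTTGCAT lay in 7 of 18 H2A and 7 of 16 H2B promoters and in 0 of the H1, H3 and H4 promoters, against 1.6% of 32851 promoters in the table. CCAAT lay in all 6 H1, all 18 H2A, all 16 H2B, 8 of 10 H3 and 3 of 12 H4 promoters, against 33.8% of all promoters. GGTCCG lay in 9 of 12 H4 promoters and 11 of all 62, against 6.72%, and TATAAA in 29 of 62, against 12.4%. These matches are descriptions of letters in a window. The other 2 GGTCCG matches were in 1 H2B and 1 H3 promoter.

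The total counts were 19.2 to 29.2 M (mega) per library, and levels are CPM, counts scaled to a common library size with TMM factors. Olfactory and vomeronasal receptor genes were taken as a measure of background. Unlike the other levels, it was scaled to the counts of identifiers with a symbol, without TMM factors. Those counts were 54.7% to 61.0% of each library, so the background is not on the CPM scale. It was 312 to 1120 per M of those counts, with medians of 813 in the 8 LSK and 491 in the 8 LK libraries. The label's pro-B identity was checked against its markers. Cd79a had a median of 0.962 CPM, Vpreb1 0.183, Igll1 0.115, Pax5 0.528 and Ebf1 0.653, so these defining B-lineage genes were near 0. Of the same 11-gene list, Rag1 (271 CPM) and Dntt (57.6 CPM) were abundant, and the summed list ran from 257 to 570 CPM in LSK and 265 to 439 CPM in LK libraries. Of 9 T and NK cell markers, Lck (221 CPM) and Trbc2 (118 CPM) were abundant and Cd3e was at 0.238 CPM, and the sum was 307 to 388 CPM in LSK and 334 to 380 CPM in LK libraries. The summed markers of myeloid cells reached at most 6.53 CPM and those of erythroid cells 3.82 CPM, with 1 myeloid gene at 0 in all BM LSK libraries. Neural, glial and meningeal markers summed to 33.9 to 47.5 CPM in BM and 36.3 to 61.8 CPM in CNS libraries, most of it Mbp (median 34.9 CPM), with Gfap at a median of 0.43 CPM. Ly6a, which encodes Sca1, was higher in LSK, with a log2 difference of 1.30 (edgeR quasi-likelihood test, adjusted p 0.0117), at 0.466 to 2.26 CPM in all.

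Histone members were abundant in every library. Together they took 0.802% to 1.53% of all counts and 1.41% to 2.51% of the counts of identifiers with a symbol. H2B genes made up a median of 30.9% of the summed member CPM, H4 genes 22.7%, H3 genes 21.3%, H1 genes 19.4% and H2A genes 5.99%. The mean levels per coding kilobase, summed over the members of a type, were 9010 CPM for H2B, 8160 for H4, 5850 for H3, 3270 for H1 and 1710 for H2A. The summed H2A level thus lay well below that of the other core types on a per-length scale as well, although the proteins are used in equal numbers. How reads that fit several near-identical copies were counted is not given in the sources used here. Coding sequences of the same length had a median identity of 96.7% between H2A members, 95.7% between H2B, 97.5% between H3 and 93.9% between H4 members, and the part of such reads in these levels was not tested.

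Some copies with the same coding sequence had counts that differed by less than counting error. Hist1h2bq and Hist1h2br have the same coding sequence, and their counts differed by at most 0.147% in any library, where the counting error of such a difference is 1.4%. Hist1h2ao and Hist1h2ap, also identical, differed by at most 2.05% against a counting error of 3.7%. Hist1h4m and Hist1h4n are identical over the coding sequence but differed by up to 20.9%, above a counting error of 2.1%. Hist2h2aa1 and Hist2h2aa2 are a further identical pair. Values of all these genes are uncertain as those of separate genes. Without Hist1h2br and Hist1h2ap, a choice made after the data were seen, the summed level ran from 7774 to 14122 CPM.

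Of the 67 members, 61 had a mean of at least 10 counts and were tested, and 47 had a mean of at least 1000 counts. Hist2h2aa1, Hist2h3b and Hist2h3c1 were listed at 0 in all 16 libraries, where a count of 0 allows up to 3 counts over all libraries, or 0.0079 CPM, for counting error only. Hist2h3b shares 99.8% of its coding bases with Hist2h3c2, which averaged 7882 counts, and to which copy shared reads were counted was not tested. Hist1h2aa, Hist2h2bb and Hist2h2aa2 totalled 15, 16 and 44 counts. These 6 members were left out of the tests.

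The summed level of all members was higher on average in LSK than in LK libraries, and the groups overlapped. It was 14226, 10240, 14689 and 11502 CPM in BM LSK 1 to 4, and 10806, 9508, 13554 and 14762 CPM in CNS LSK 1 to 4. It was 9657, 8105, 13035 and 8217 CPM in BM LK 1 to 4, and 11582, 9449, 10029 and 9539 CPM in CNS LK 1 to 4. CNS LSK 2 lay among the LK libraries, and BM LK 3 was above 4 of the 8 LSK libraries. The means were 12665 ± 2142 CPM in BM LSK, 12157 ± 2421 in CNS LSK, 9753 ± 2299 in BM LK and 10150 ± 988 in CNS LK (SD, n = 4). The mean of LSK minus LK was 0.32 on the log2 scale, against a difference of 0.0076 between niches, with no test on either sum. In bulk samples, fewer cells in S phase and less histone RNA per cell cannot be told apart.

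**Figure D1:**
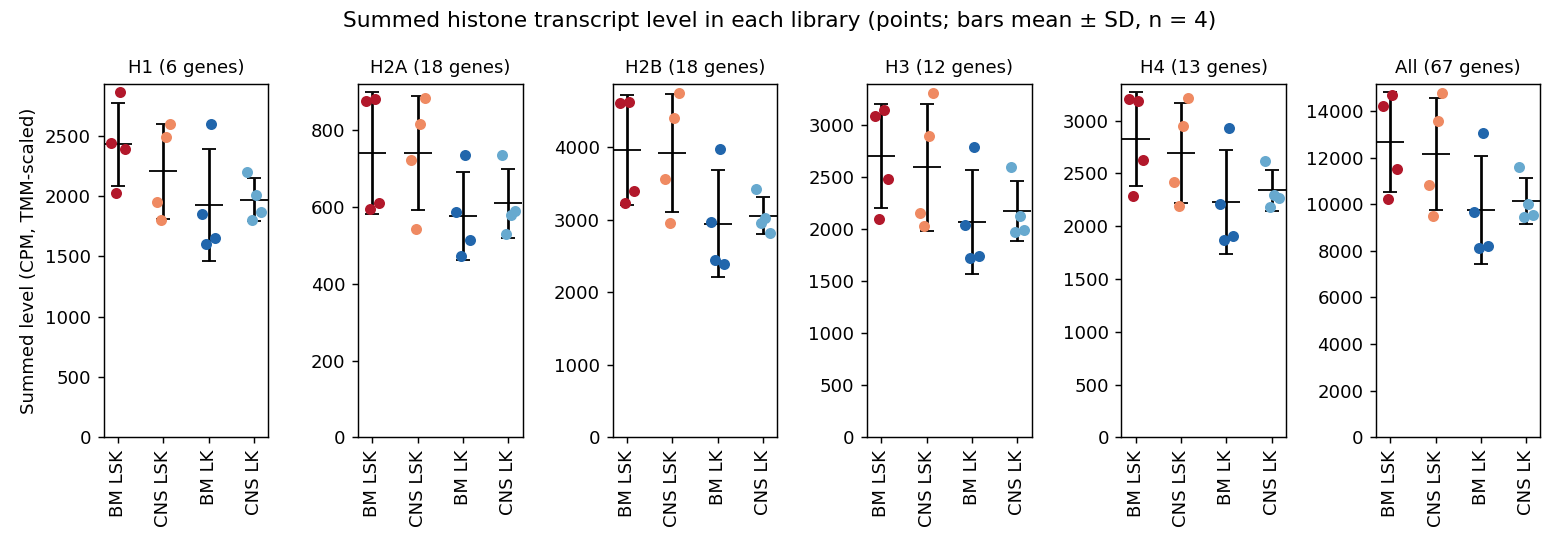
Summed level in CPM (vertical axis, from 0) of the members of each histone type and of all 67 members in each library, by group (horizontal axis). Points are libraries and bars are means ± SD of 4; in each panel the LSK means lie above the LK means, and the points of the groups overlap.

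The comparison of LPC types over both niches asked whether LSK and LK cells differ in histone transcripts. With edgeR's quasi-likelihood test and Benjamini-Hochberg adjustment over 18878 identifiers, 0 of 61 members passed an adjusted p of 0.05, where 0.238% of all identifiers did. At an unadjusted p under 0.05 and higher in LSK there were 55 of 61 members (90.2%), against 7.53% of all identifiers. All 61 log2 differences, LSK minus LK, were positive, from 0.15 to 0.58 with a median of 0.33, where the median over all identifiers was -0.011. DESeq2 called 5 members among 222 of 18878 identifiers, and limma called 0 members among 37 of 18878. Without BM LK 3 edgeR called 6 members among 59 of 19018 identifiers, and without CNS LSK 2 it called 3 among 138 of 18609. These members were all higher in LSK, and edgeR with all libraries called 45 of 18878 identifiers. Without any 1 of the other libraries edgeR called 0 members. With 1 library left out, the median ran from 0.277 (without BM LSK 3) to 0.404 (without BM LK 3). The members with an unadjusted p under 0.05 then numbered 44 to 58, for which shares of all identifiers were not computed. The members share libraries and move together, so the 61 differences are not separate pieces of evidence.

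**Figure D2:**
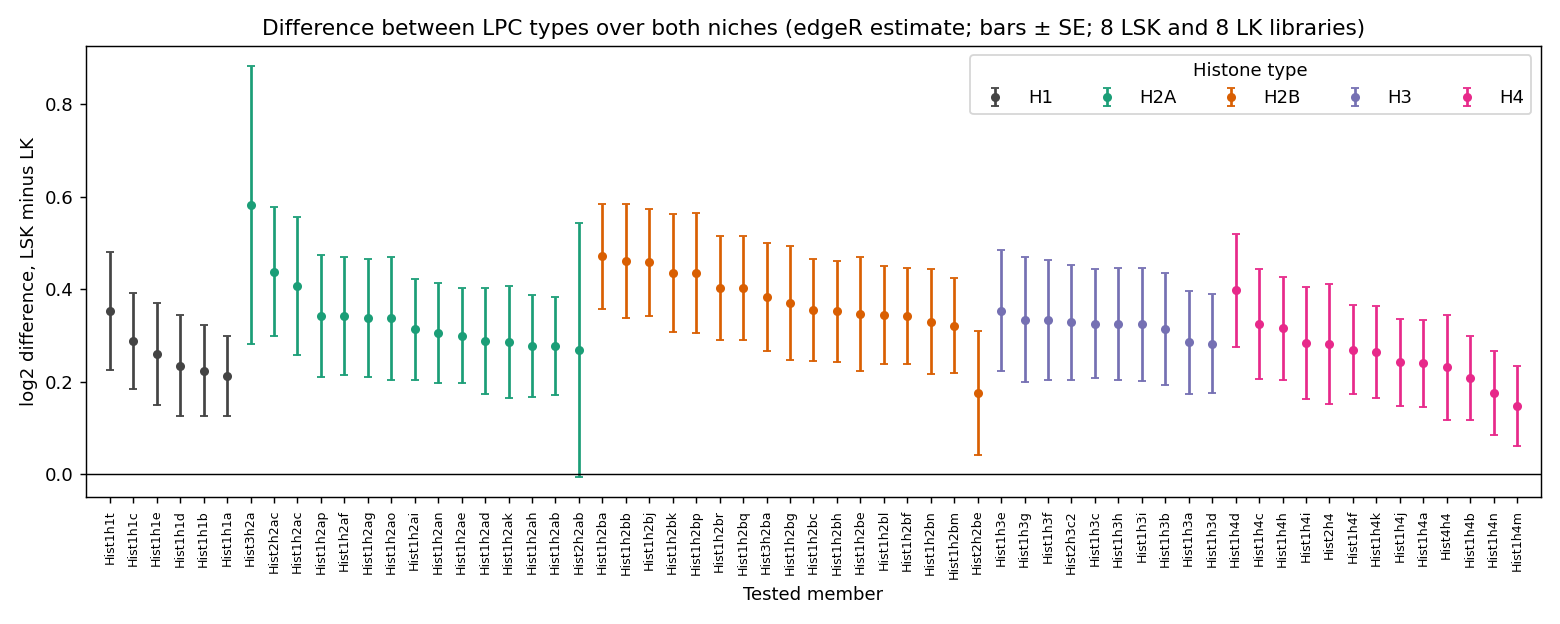
Difference LSK minus LK on the log2 scale (vertical axis) for each of the 61 tested members (horizontal axis, grouped by histone type), as edgeR estimates with bars of ± SE over 8 LSK and 8 LK libraries. All estimates lie above 0, between 0.15 and 0.58, and the widest bar belongs to Hist3h2a.

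Linker histone H1 genes had a median difference of 0.25 (range 0.21 to 0.35), and 6 of 6 had an unadjusted p under 0.05. Hist1h1d and Hist1h1e, somatic H1 genes and the most abundant of the type, illustrate it. Hist1h1d was at 579, 508, 742 and 593 CPM in BM LSK, 471, 447, 634 and 653 in CNS LSK, 471, 399, 651 and 401 in BM LK, and 570, 457, 513 and 469 in CNS LK. The groups overlapped, with BM LK 3 above 6 of the 8 LSK libraries. Its log2 difference was 0.23 ± 0.11 (SE; edgeR quasi-likelihood test, adjusted p 0.40). Hist1h1e averaged 506 CPM, with a difference of 0.26 ± 0.11 (SE; edgeR adjusted p 0.361).

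Hist1h1t encodes the testis-specific linker histone H1t. It was present at 28.4, 17.2, 25.3 and 21.4 CPM in BM LSK, 19.5, 15.6, 22.0 and 19.1 in CNS LSK, 14.2, 13.3, 25.0 and 14.5 in BM LK, and 17.3, 13.2, 17.2 and 16.7 in CNS LK. BM LK 3 stood apart from the other BM LK libraries and overlapped the LSK range. CNS LK 1, 3 and 4, at 17.3, 17.2 and 16.7 CPM, also lay within the LSK range. The difference between LPC types was 0.35 ± 0.13 (SE; edgeR adjusted p 0.277).

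H2A genes had a median difference of 0.31 (0.27 to 0.58), and 13 of 15 tested had an unadjusted p under 0.05. Hist1h2ad, the most abundant H2A gene, was at 88.4, 62.2, 90.0 and 65.1 CPM in BM LSK, 76.7, 55.8, 86.3 and 93.7 in CNS LSK, 61.8, 51.6, 76.5 and 57.2 in BM LK, and 80.0, 53.5, 61.6 and 64.4 in CNS LK. Its 4 highest libraries were all LSK, and CNS LSK 2 was among its lowest. The difference was 0.29 ± 0.11 (SE; edgeR adjusted p 0.323). Hist1h2ai, a neighbour in level at 69.4 CPM, had a difference of 0.31 ± 0.11 (SE; edgeR adjusted p 0.256).

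H2B genes had the highest median of the 5 types, 0.37 (0.18 to 0.47), and 16 of 17 tested had an unadjusted p under 0.05. No test compared the types. Hist1h2ba encodes an H2B best known from testis and had the smallest p of any member. It was at 43.6, 30.2, 41.0 and 32.5 CPM in BM LSK, 29.8, 25.6, 41.8 and 47.2 in CNS LSK, 26.3, 21.8, 30.4 and 25.5 in BM LK, and 30.2, 25.8, 24.4 and 25.9 in CNS LK. In BM, only LSK 2 at 30.2 CPM lay below the highest LK library, at 30.4 CPM. In the CNS, LSK 1 at 29.8 CPM and LSK 2 at 25.6 CPM lay below the highest LK library, at 30.2 CPM. The difference was 0.47 ± 0.11 (SE; edgeR quasi-likelihood test, p 0.000546 unadjusted and 0.0946 adjusted).

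Hist1h2bj, a core H2B gene, was at 287, 199, 277 and 211 CPM in BM LSK, 215, 183, 281 and 311 in CNS LSK, 176, 151, 234 and 143 in BM LK, and 197, 179, 178 and 171 in CNS LK. BM LK 3 was above 4 of the 8 LSK libraries, and the lowest LSK library, CNS LSK 2, lay within the LK range. The difference was 0.46 ± 0.12 (SE; edgeR adjusted p 0.109). Hist1h2bk, the member with the highest level per coding kilobase (1189 CPM), had 591, 419, 613 and 442 CPM in BM LSK, 456, 381, 584 and 647 in CNS LSK, 369, 310, 531 and 282 in BM LK, and 426, 385, 402 and 352 in CNS LK. The 4 highest of its 16 values were LSK libraries. Its difference was 0.44 ± 0.13 (SE; edgeR adjusted p 0.183). Hist1h2bq averaged 416 CPM, with a difference of 0.40 ± 0.11 (SE; edgeR adjusted p 0.153), and could not be told apart from Hist1h2br.

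H3 genes were the most uniform in this comparison, with differences from 0.28 to 0.35 (median 0.33) and an unadjusted p under 0.05 in 10 of 10 tested. Hist1h3b, the most abundant H3 gene, was at 487, 330, 508 and 395 CPM in BM LSK, 345, 320, 457 and 519 in CNS LSK, 318, 275, 443 and 273 in BM LK, and 418, 316, 339 and 321 in CNS LK. BM LK 3 and CNS LK 1 were each above 4 of the 8 LSK libraries. The difference was 0.31 ± 0.12 (SE; edgeR adjusted p 0.31). Hist2h3c2, from the Hist2 cluster, averaged 336 CPM with a difference of 0.33 ± 0.12 (SE; edgeR adjusted p 0.297).

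H4 genes had a median difference of 0.26 (0.15 to 0.40), and 10 of 13 had an unadjusted p under 0.05. Hist1h4d, the most abundant H4 gene, was at 440, 327, 490 and 391 CPM in BM LSK, 339, 304, 429 and 485 in CNS LSK, 295, 253, 428 and 228 in BM LK, and 334, 285, 334 and 273 in CNS LK. BM LK 3 was the highest LK library, above 4 of the 8 LSK libraries. The difference was 0.40 ± 0.12 (SE; edgeR adjusted p 0.19). Hist1h4k averaged 325 CPM with a difference of 0.26 ± 0.10 (SE; edgeR adjusted p 0.299). At the low end, Hist1h4m had a difference of 0.15 ± 0.087 (SE; edgeR adjusted p 0.519).

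Within BM, 0 of 61 members passed the adjusted threshold in edgeR's test, as did 0% of all identifiers. DESeq2 and limma also called 0 members here and in the 5 comparisons that follow. Of all 18878 identifiers, DESeq2 called 39 within BM, 6 within the CNS and 40 between niches over both LPC types. It called 0 within LSK, within LK and for the interaction, and limma called 0 in each of these comparisons. At an unadjusted p under 0.05, 46 members (75.4%) were higher in LSK, against 3.89% of all identifiers, and the median difference was 0.38 (0.21 to 0.66). That count was 6 to 24 without any 1 of BM LSK 1, BM LSK 3, BM LK 1, BM LK 2 or BM LK 4. It was 57 without BM LSK 2, 58 without BM LK 3 and 41 to 52 without any 1 of the remaining libraries. Shares of all identifiers at that level were not computed with a library left out, here or within the CNS. Hist1h2ba (0.50 ± 0.16 SE, edgeR adjusted p 0.665) and Hist1h2bb, a core H2B gene (0.51 ± 0.17 SE, edgeR adjusted p 0.727), had among the smallest p-values. Hist1h2bb was at 358, 240, 336 and 244 CPM in BM LSK and 203, 176, 286 and 165 in BM LK, so only BM LK 3 overlapped the LSK libraries.

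Within the CNS, 0 of 61 members passed in edgeR's test, as did 0% of all identifiers. At an unadjusted p under 0.05, 9 members (14.8%) were higher in LSK, against 4.25% of all identifiers, and the median difference was 0.27 (0.059 to 0.51). Of the 9, 8 were H2B genes and 1 was an H2A gene. The count was 36 without CNS LSK 2, 14 to 19 without BM LSK 2, BM LK 2, BM LK 3 or CNS LK 1, and 2 or 3 without CNS LSK 3, CNS LSK 4, CNS LK 2, CNS LK 3 or CNS LK 4. Hist1h2bj (0.45 ± 0.16 SE) and Hist1h2ba (0.44 ± 0.16 SE) had the smallest p-values, both at 0.705 after adjustment in edgeR's test.

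The test of whether the niche difference depends on LPC type (CNS minus BM in LSK, minus the same in LK) called 0 of 61 members in edgeR's test, against 0% of all identifiers, and 0 members had an unadjusted p under 0.05, against 1.49%. The median was -0.11, with 59 of 61 members below 0, where the median of all identifiers was -0.007 and 48.3% of them were above 0. Leaving out 1 library moved the median from -0.279 (without BM LK 3) to -0.00041 (without CNS LSK 2). Hist1h4b, an H4 gene, had the smallest p of the members, at -0.21 ± 0.18 (SE; edgeR adjusted p 1.00), and Hist1h4m followed at -0.18 ± 0.17 (SE; edgeR adjusted p 1.00). The different counts within BM and CNS are therefore not shown to differ between niches.

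The niche comparison asked whether histone transcripts differ between leukaemia cells of the CNS and of bone marrow. Over both LPC types, 0 of 61 members passed in edgeR's test (0% of all identifiers), and 0 had an unadjusted p under 0.05, against 9.15% of all identifiers. The median log2 difference, CNS minus BM, was 0.0093 (-0.16 to 0.12), and it ran from -0.045 (without BM LSK 2) to 0.093 (without BM LK 3) when 1 library was left out. Hist3h2ba, an H2B gene of the small Hist3 cluster, was at -0.16 ± 0.12 (SE; edgeR adjusted p 0.741). Hist1h1t was at -0.16 ± 0.13 (SE; edgeR adjusted p 0.771). Hist3h2ba had 19.9, 13.9, 17.6 and 15.1 CPM in BM LSK, 17.9, 11.6, 14.6 and 12.3 in CNS LSK, 11.8, 9.87, 16.3 and 10.4 in BM LK, and 13.1, 11.4, 11.7 and 9.46 in CNS LK, and the niches overlapped.

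Within LSK, 0 of 61 members passed in edgeR's test (0% of all identifiers) and 0 had an unadjusted p under 0.05, against 5.74%. The median was -0.049, with 18 members higher and 43 lower in the CNS, where 51.3% of all identifiers were higher. The direction of this median turned without BM LSK 1 (0.04), BM LSK 3 (0.029), CNS LSK 1 (0.0084) or CNS LSK 2 (0.055), and with the background covariate (0.045), and it reached -0.14 without CNS LSK 4. Hist1h4b (-0.21 ± 0.13 SE, edgeR adjusted p 0.862) and Hist1h1t (-0.27 ± 0.18 SE, edgeR adjusted p 0.873) had the smallest p-values. All 6 H1 genes and all 10 tested H3 genes were below 0. Within LK, 0 of 61 passed in edgeR's test (0% of all identifiers) and 0 had an unadjusted p under 0.05, against 3.99%. The median was 0.063, with 58 members higher and 3 lower, where 51.5% of all identifiers were higher. It turned without BM LK 2 (-0.023) or CNS LK 1 (-0.018), was 0.0018 without BM LK 4 and was 0.228 without BM LK 3. Hist4h4, the single gene of the Hist4 cluster (0.19 ± 0.16 SE, edgeR adjusted p 1.00), and Hist1h2an, an H2A gene (0.13 ± 0.15 SE, edgeR adjusted p 1.00), had the smallest p-values. These comparisons share libraries with each other and with the LPC comparison.

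Members varied together from library to library. Over the 16 libraries, the log2 CPM of 52 of the 61 tested members had a Pearson's r above 0.9 with the summed other members (median 0.967), and the 1830 member pairs had a median r of 0.923. The libraries share group differences, depth and background, and members can share reads. Each member's highest library exceeded its lowest by 1.75-fold for Hist1h4k and 2.29-fold for Hist1h2bk, for example.

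**Figure D3:**
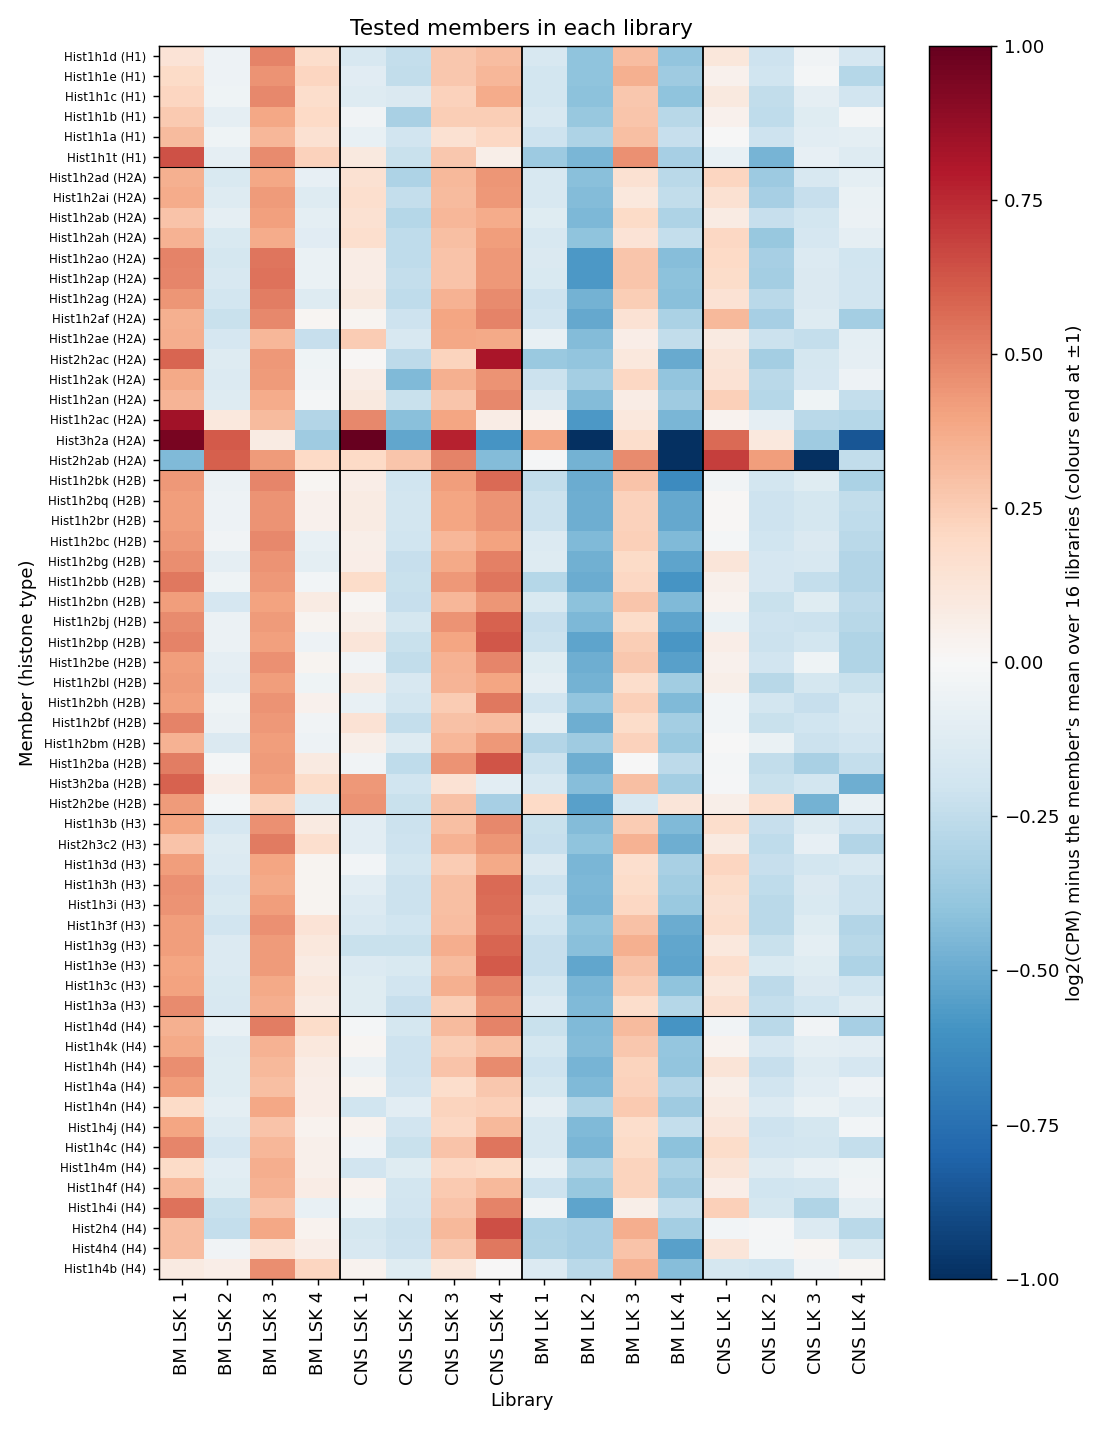
Log2 CPM of each of the 61 tested members (vertical axis, grouped by histone type) in each of 16 libraries (horizontal axis, 4 groups of 4), as the difference from the member's mean, with colours ending at ±1. BM LSK 1, BM LSK 3, CNS LSK 3, CNS LSK 4 and BM LK 3 are high for most members, BM LK 2 and BM LK 4 are low, and Hist3h2a, Hist2h2ab and Hist2h2be depart from the pattern.

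The 3 members with an r under 0.5 came from the Hist2 and Hist3 clusters, and they were picked after their values were seen. Hist2h2be, which encodes an H2B form known from olfactory neurons, had an r of 0.298 and was at 15, 11.0, 13 and 10.2 CPM in BM LSK, 15.2, 9.55, 13.6 and 8.83 in CNS LSK, 12.8, 7.66, 9.96 and 12.1 in BM LK, and 11.6, 12.5, 8.04 and 10.6 in CNS LK. CNS LSK 4, the library with the highest summed level, was among the lowest for this gene. Its LSK minus LK difference was 0.18 ± 0.13 (SE; edgeR adjusted p 0.641). Hist3h2a, an H2A gene (r 0.488), varied 5.49-fold between libraries, from 2.11 to 11.6 CPM, with a difference of 0.58 ± 0.30 (SE; edgeR adjusted p 0.455). Hist2h2ab (r 0.338) averaged only 20.1 counts, at 0.359 to 1.28 CPM, where counting error is large. Other members of these clusters followed the rest: Hist2h2ac had an r of 0.934 and Hist2h3c2 of 0.979.

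**Figure D4:**
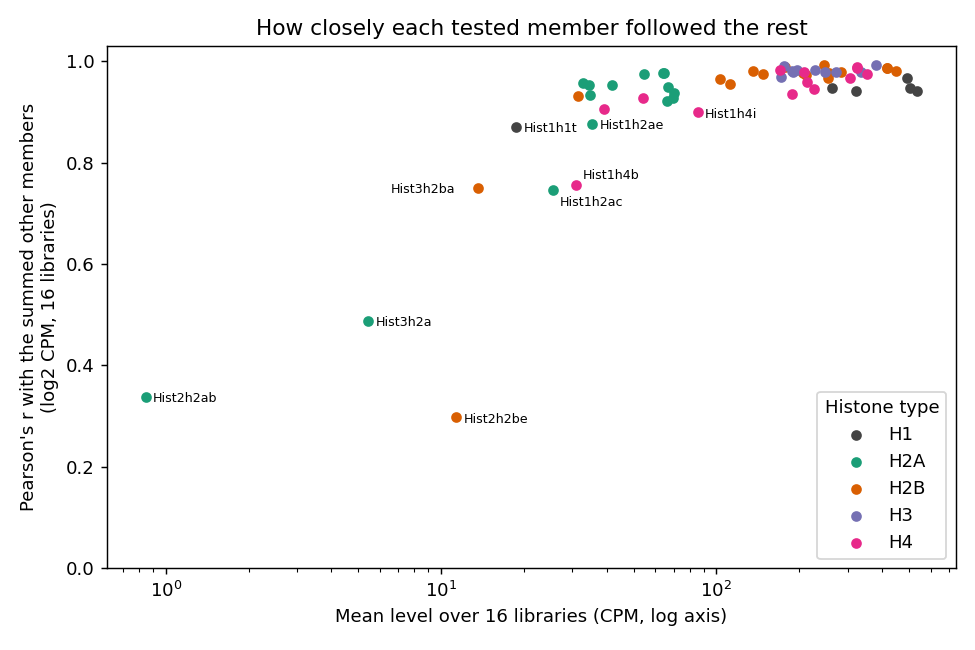
Pearson's r of each tested member with the summed other members over 16 libraries (vertical axis) against its mean level in CPM (horizontal log axis), coloured by histone type. Members with an r under 0.9 are named; Hist2h2be at 0.298 lies lowest, and the abundant members lie near 1.

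Among 11580 other identifiers with a symbol and a mean of at least 50 counts, 7 (0.0604%) had an r above 0.9 with the summed member level. The most alike was H2ax (older name H2afx, r 0.963), the H2A variant phosphorylated at DNA breaks, at 102 to 198 CPM. It was followed by Ube2s (0.949), a ubiquitin-conjugating enzyme of the anaphase-promoting complex, and by the tubulin genes Tuba1b (0.948), Tubb5 (0.93) and Tuba1c (0.929). Their LSK minus LK differences were 0.39, 0.28, 0.31, 0.25 and 0.31, and none passed in edgeR's test (smallest adjusted p 0.0874, for Tuba1c).

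Lists of genes that work with the members were read in the same comparison of LPC types over both niches, beside 0.238% of all identifiers called, 7.53% higher in LSK at an unadjusted p under 0.05 and 46.8% above 0. Of 10 histone transcription genes (NPAT and its partners), 0 passed in edgeR's test, 0 had an unadjusted p under 0.05 and 3 were above 0, with a median of -0.034; Cdk2, the kinase that activates NPAT, was at 0.10 ± 0.062 (SE; edgeR adjusted p 0.525). Of 9 tested 3′ processing genes, 0 passed at either level, with a median of -0.014, and of 9 decay genes 0 passed at either level and 0 were above 0, with a median of -0.054. Tut7, which adds uridines to histone mRNA during decay, was at -0.11 ± 0.058 (SE; edgeR adjusted p 0.451). Of 15 chaperone and supply genes, 0 passed at either level and 11 were above 0, with a median of 0.043; Asf1b, a chaperone of new H3 and H4, was at 0.18 ± 0.093 (SE; edgeR adjusted p 0.47).

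Of 9 tested replication-independent variants, 1 passed, 4 had an unadjusted p under 0.05, 7 were above 0 and the median was 0.16. Cenpa, the centromeric H3 variant, rose in LSK by 0.44 ± 0.088 (SE; edgeR adjusted p 0.0377), from 28.6 ± 3.31 to 39.6 ± 3.86 CPM in BM and from 33.2 ± 6.86 to 44.4 ± 4.16 CPM in the CNS (SD, n = 4). H2ax was at 0.39 ± 0.11 (SE; edgeR adjusted p 0.182). None of these lists had a gene past the threshold in the other 6 comparisons, with 0% of all identifiers called there.

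Of 16 S phase genes, 0 passed in edgeR's test, 2 were higher and 1 lower at an unadjusted p under 0.05, 6 were above 0 and the median was -0.0029. By niche, 13 of 16 were above 0 in BM (median 0.055), and 3 of 16 in the CNS (median -0.044). All 61 histone members were above 0 in both. Cdc45, a part of the replicative helicase, was at 0.16 ± 0.071 (SE; edgeR adjusted p 0.375). The mean log2 CPM of the list ran from 6.34 in CNS LSK 2 to 6.72 in BM LSK 1 and BM LK 3, a span of under 0.5 log2 units. The summed histone level, a sum of CPM on a linear scale, spanned 1.82-fold. These spans are of unlike measures and were not compared. The 2 measures went together in some libraries: BM LSK 1 (6.72), BM LK 3 (6.72) and BM LSK 3 (6.69) had summed histone levels of 14226, 13035 and 14689 CPM, and CNS LSK 2 (6.34) had 9508 CPM. In others they did not: CNS LK 4 (6.68) had 9539 CPM and CNS LSK 4 (6.69) had 14762 CPM. The difference between the lists was not tested.

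**Figure D5:**
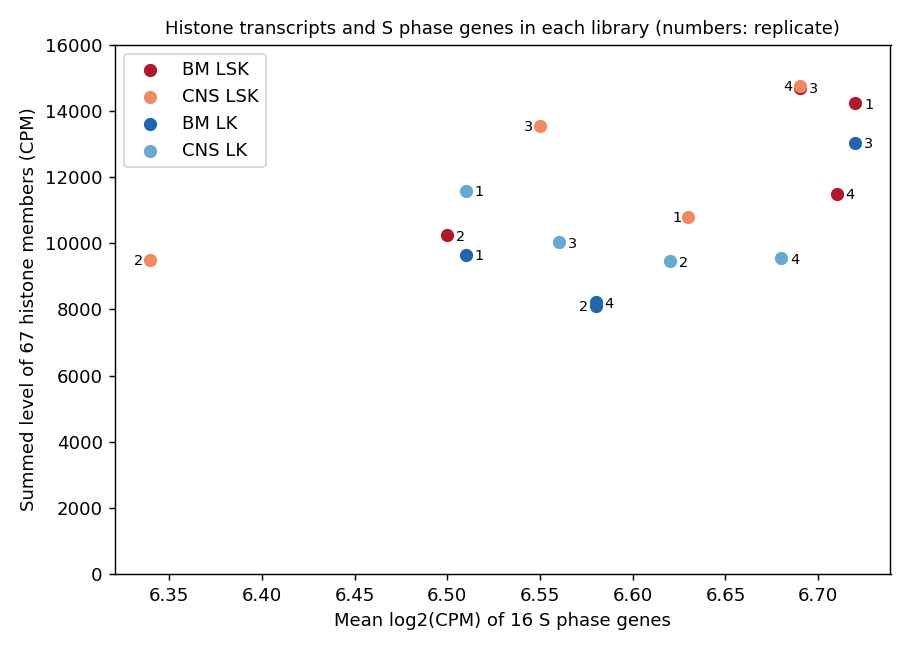
Summed level of the 67 histone members in CPM (vertical axis, from 0) against the mean log2 CPM of 16 S phase genes (horizontal axis) in each library, coloured by group and numbered by replicate. BM LSK 1 and BM LK 3 are high on both axes and CNS LSK 2 is low on both, while CNS LK 4 (6.68) and CNS LSK 4 (6.69) differ in histone level (9539 and 14762 CPM).

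The background measure, which was higher in LSK than in LK libraries by its medians, was set beside the LPC difference. With its log2 value as a covariate, 0 members passed in edgeR's test, 56 had an unadjusted p under 0.05 and the median difference was 0.38. That fit called 10 of all 18878 identifiers, against 45 without the covariate. The share of all identifiers with an unadjusted p under 0.05 was not computed for it. Single libraries went both ways. The background, per M counts with a symbol, and the summed histone level in CPM are on unlike scales. BM LSK 3 had a background of 312 and a summed histone level of 14689 CPM. CNS LSK 2 had a background of 1120 and a histone level of 9508 CPM. The same values were 342 and 8217 CPM in BM LK 4, 395 and 9449 CPM in CNS LK 2, and 938 and 13554 CPM in CNS LSK 3. The part of cell-type markers in the difference was not tested.

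Promoter letters were set beside the LPC differences as a description. H2B members with ATTTGCAT had a median of 0.40 (6 members, 0.32 to 0.47) and those without it 0.38 (9 members, 0.33 to 0.46). H2A members with it had a median of 0.35 (6, 0.28 to 0.58) and those without it 0.31 (9, 0.27 to 0.34). H4 members with GGTCCG had a median of 0.26 (9, 0.15 to 0.40) and those without it 0.24 (3, 0.21 to 0.32). H4 members with CCAAT had a median of 0.33 (3, 0.24 to 0.40) and those without it 0.24 (9, 0.15 to 0.32). These ranges overlapped. The ranges with and without TATAAA overlapped in H2A, H2B and H4 members, and in H3 members they met without overlap, at 0.282 to 0.325 with it (4) and 0.326 to 0.354 without it (4).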

How the data were processed

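The deposited table held whole-number counts per Ensembl gene identifier, made by the authors against GRCm39; DESeq2 is the tool named, per the submitters' processing notes. The aligner, counter, annotation, strand setting and use of molecular identifiers are not given in the sources used here. The table is named as normalised, but its column totals and size factors (0.797 to 1.27) differ, so the deposited counts were treated as raw. RNA came from a Zymo microprep kit and libraries from a SMARTer stranded pico-input total RNA kit, per the labels' protocols. Columns were matched to samples by their labels, and symbols by identifier for 52081 of 55414 identifiers.

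The 18878 identifiers that averaged 10 counts or more were scaled with TMM and fitted as 4 group means, with no block, in edgeR 4.0.16 (R 4.3.3). Each of 7 contrasts had a quasi-likelihood test, two-sided, with p-values adjusted by Benjamini-Hochberg over all identifiers tested. Scripts were tested on simulated data. Alternatives used other scaling factors, count minimums, identifiers with a symbol, DESeq2 1.42.0, limma 3.58.1, a background covariate, blocks and leaving out each library. The floor for members without counts and the errors given for copy pairs cover counting error only. Values of ± SE came from the edgeR fits and those of ± SD from the 4 libraries of a group. Both include the spread between libraries. Replicate counts differed beyond sampling noise (chi-square over its degrees of freedom, 10.6 to 41.6), so none was counted as a duplicate.

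Members and lists were chosen with earlier results of these data known. Named members were those past the threshold, the 2 most abundant of each type, and the 2 with the smallest p in each comparison; named genes of other lists were those past the threshold and the 2 with the smallest p, with the 5 genes most like the summed members. Members singled out for other values are named as such. The pseudogenes left out were Hist1h2aj, Hist1h2al and Hist3h2bb-ps. The values of some genes under this rule and of some markers are not reported here.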

Additional observations from a re-analysis of the deposited data

Results flagged for a closer look

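The per-library level of 25 quantities, the named members and type sums among them, was examined in each of the 4 groups (100 groups of 4 libraries), and 2 groups had a library far from the other 3, where chance gives about 5. Both concern Hist1h1t, the testis-specific linker histone gene. In BM LK 3 it was at 25.0 CPM, against 13.3 to 14.5 CPM in the other BM LK libraries. In CNS LK 2 it was at 13.2 CPM, against 16.7 to 17.3 CPM in the other CNS LK libraries. BM LK 3 also had the highest summed member level of its group, 13035 CPM.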

How the results depend on the processing

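The count of members past an adjusted p of 0.05 was 0 in the other 6 comparisons under every alternative run. Some alternatives called other identifiers there. Testing every identifier with a count called 85 of 53366 between niches over both LPC types. It called 10 within LSK, 14 within LK, 48 within BM and 38 within the CNS. DESeq2 called 40 of 18878 between niches over both LPC types, 39 within BM and 6 within the CNS. Without BM LK 3 edgeR called 2 of 19018 within BM, and without CNS LSK 2 it called 3 of 18609 within the CNS. Between LPC types over both niches the count of members was 0 with edgeR and 11 of 64 when every identifier with a count was tested. It was 5 with DESeq2 and 10 with the replicate block on title numbers, all higher in LSK. The calls over all identifiers were 45 of 18878 with edgeR, and 290 of 53366, 222 of 18878 and 162 of 18878 under these alternatives. Leaving out 1 library gave 0 to 6, with 3 without CNS LSK 2 and 6 without BM LK 3, and the cause was not tested. No named member reversed direction, and 19 of its values under alternatives passed the threshold where the value as reported did not. The summed level's difference between LPC types was 0.312 to 0.316 with or without 1 identifier of each near-equal pair, an alternative added after the data were seen, and 0.293 and 0.303 under the other denominators, which used identifiers with a symbol.

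The labels do not say what the description stems or numbers are. Deviations from group means correlated above 0.1 in 6 of 8 stems (median 0.2055) and in 4 of 8 number pairs (median 0.0722), so neither was taken to pair the libraries. With the replicate block on stems, 0 members passed in the niche comparisons and the interaction. Of all 18878 identifiers, that fit called 126 between niches over both LPC types, 26 within LSK and 12 within LK. It called 0 for the interaction, and without the block each of these counts was 0. With BM and CNS counts of each stem summed, 0 members and 0 of all 18878 identifiers passed between LPC types. The calls of Cenpa and Ly6a between LPC types therefore did not hold in that fit. Depth limits the members with few counts: 47 had a mean of at least 1000 counts and 6 were under the minimum of 10.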

Other observations

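The 3 pseudogenes of the clusters, left out of the members, had LSK minus LK differences of 0.28 (Hist1h2aj, 51.3 CPM), 0.31 (Hist1h2al, 6.80 CPM) and 0.26 (Hist3h2bb-ps, 6.32 CPM) on the log2 scale, with adjusted p-values of 0.332, 0.368 and 0.45 in edgeR's quasi-likelihood test. Pairs of libraries with the same number gave LSK over LK ratios of the summed member level of 1.47, 1.26, 1.13 and 1.40 in BM, and 0.933, 1.01, 1.35 and 1.55 in the CNS. The ratios of CNS over BM for one description stem were 0.76, 0.928, 0.923 and 1.28 in LSK, and 1.2, 1.17, 0.769 and 1.16 in LK.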
